A study of Mus musculus with 14 samples.

Results

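Transcripts of 10 genes of the hypoxia-inducible factor (HIF) and FOXO pathways were followed in haematopoietic stem cells (HSCs) sorted by calcium level. They are the HIF subunits Hif1a, Epas1 and Arnt, the prolyl hydroxylases Egln1, Egln2 and Egln3, the ubiquitin ligase subunit Vhl, and the transcription factors Foxo1, Foxo3 and Foxo4. The genes were chosen by name, each had 1 label among the 48714 listed, and 9 of the 10 reached the mean of 1 RPKM (reads per kilobase of transcript model, scaled by library size) required for testing. Epas1 did not reach it. The HSCs came from bone marrow of C57BL/6 mice and were sorted as [Ca2+]high (calcium-high) or [Ca2+]low (calcium-low), with 7 libraries of 100 cells per group, numbered 1 to 7 in both. No mutation, treatment or age is given for either group, no sort gate other than calcium is given, and nothing says whether libraries came from separate animals. The p-values therefore reflect the spread between these libraries, which may be technical. The series names cytoplasmic calcium as a regulator of HSC dormancy, and the comparison bears on which transcripts differ between the calcium levels.

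HIF is a pair of proteins, an oxygen-labile alpha subunit (HIF-1 alpha from Hif1a or HIF-2 alpha from Epas1) and the stable partner ARNT. In the presence of oxygen the EGLN enzymes hydroxylate the alpha subunit, and VHL then marks it for degradation, so much of the control acts on protein and is not seen in RNA. FOXO factors turn on genes of cell cycle arrest, oxidant defence and cell death, and AKT downstream of PI3K holds them in the cytoplasm. In HSCs both pathways are known for their part in quiescence, the HIF arm through glycolytic metabolism in the low-oxygen marrow and Foxo3 through protection from oxidants.

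Libraries of replicates 1 to 3 held 3.58 to 7.39 M reads in listed genes, and those of replicates 4 to 7 held 8.28 to 10.3 M. These library sets follow the listing order of the samples, and no label calls them separate preparations. Calcium-low replicate 3 stood apart with a summed level of 8 neutrophil markers of 761 RPKM, against at most 6.92 in the other libraries. Both libraries of replicate 3 had the highest summed level of 8 erythroid markers in their group, 78.8 RPKM in calcium-high and 146 in calcium-low, against at most 58.4 and 34.7 RPKM in the others. The part of these transcripts in the values of replicate 3 given below was not tested. Both libraries of replicate 3 had the lowest summed level of 10 HSC markers in their group, 190 RPKM in calcium-high and 181 in calcium-low, against 296 to 371 and 224 to 283 RPKM in the others. All 10 HSC markers had a mean of at least 1 RPKM over the 14 libraries, though Hoxb5 averaged 0.705 RPKM in calcium-low. Of the 10, 8 had the higher mean in calcium-high. Such a level does not identify the cells by itself, since Lyz2 (70.0 RPKM) and Nkg7 (14.7 RPKM), markers of other cell types, also reached it. Transcripts of 4 Y-linked genes summed to 15.0 to 21.8 RPKM in replicates 1 and 2 of both groups and to 0 to 0.0459 in the other 10 libraries, so same-numbered libraries matched in this respect. Same-numbered libraries also deviated together from their group means. Within library sets this held in replicates 1 to 3 (r = 0.276 to 0.552) and little or not at all in replicates 4 to 7 (r = -0.0647 to 0.123). Fits with the replicate number as a block are given where they change a call.

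The promoters of Egln2 and Egln3 are shown because these hydroxylases have the highest level of the family and its largest difference between the groups, and because each holds the core letters of the HIF-binding element. Each line gives the 250 bases before the gene's start from RefSeq (GRCm38.p6), on the minus strand and read 5′ to 3′, with ACGTG in capitals. The windows are chr7:27166803-27167052 for Egln2 and chr12:54203875-54204124 for Egln3.
Egln2: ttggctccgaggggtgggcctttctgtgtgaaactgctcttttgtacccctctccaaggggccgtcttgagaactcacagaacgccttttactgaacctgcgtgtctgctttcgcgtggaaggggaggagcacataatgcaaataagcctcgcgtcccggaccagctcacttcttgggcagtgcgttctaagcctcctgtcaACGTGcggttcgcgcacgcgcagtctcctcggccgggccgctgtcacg
Egln3: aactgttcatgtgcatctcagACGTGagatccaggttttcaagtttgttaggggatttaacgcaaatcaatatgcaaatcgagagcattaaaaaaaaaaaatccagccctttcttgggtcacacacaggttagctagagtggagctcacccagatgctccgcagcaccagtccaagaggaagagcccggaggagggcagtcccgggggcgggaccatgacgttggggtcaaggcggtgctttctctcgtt
The motif searched was ACGTG on either strand, which covers its reverse complement CACGT. It begins at position -48 from the Egln2 start and at -229 from the Egln3 start. RefSeq gives a further start for Egln2, and the 250 bases before it (chr7:27165729-27165978) hold 0 matches. Of the 8 genes with a RefSeq promoter entry, 4 held it in this window (Hif1a, Egln1, Egln2 and Egln3), and 16.6% of 32851 promoters of the same length did. A match of these letters is a description of the sequence and not of binding.

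Across all 14 libraries the 10 transcripts ranged from 0.420 ± 0.337 RPKM for Epas1 to 22.8 ± 3.77 RPKM for Foxo3 (mean ± SD, n = 14). Foxo3 lay above 97.2% of labels listed above 0. It was followed by Egln2 at 8.27 ± 1.19 RPKM and Arnt at 5.92 ± 0.900 RPKM, and Foxo3 and Egln2 each exceeded the next gene in all 14 libraries. Arnt exceeded Vhl, at 4.77 ± 1.04 RPKM, in 13 of 14 libraries, and Vhl exceeded Hif1a, at 3.74 ± 0.980 RPKM, in 11 of 14. Hif1a exceeded Egln3, at 2.82 ± 1.01 RPKM, in 11 of 14. Egln3, Foxo4 (2.77 ± 0.501), Foxo1 (2.64 ± 0.677) and Egln1 (2.53 ± 0.466) did not differ beyond their spread as neighbours in this order. All 4 exceeded Epas1 in mean level, and Egln1 was above Epas1 in 14 of 14 libraries. These levels are per length of gene model.

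**Figure D1:**
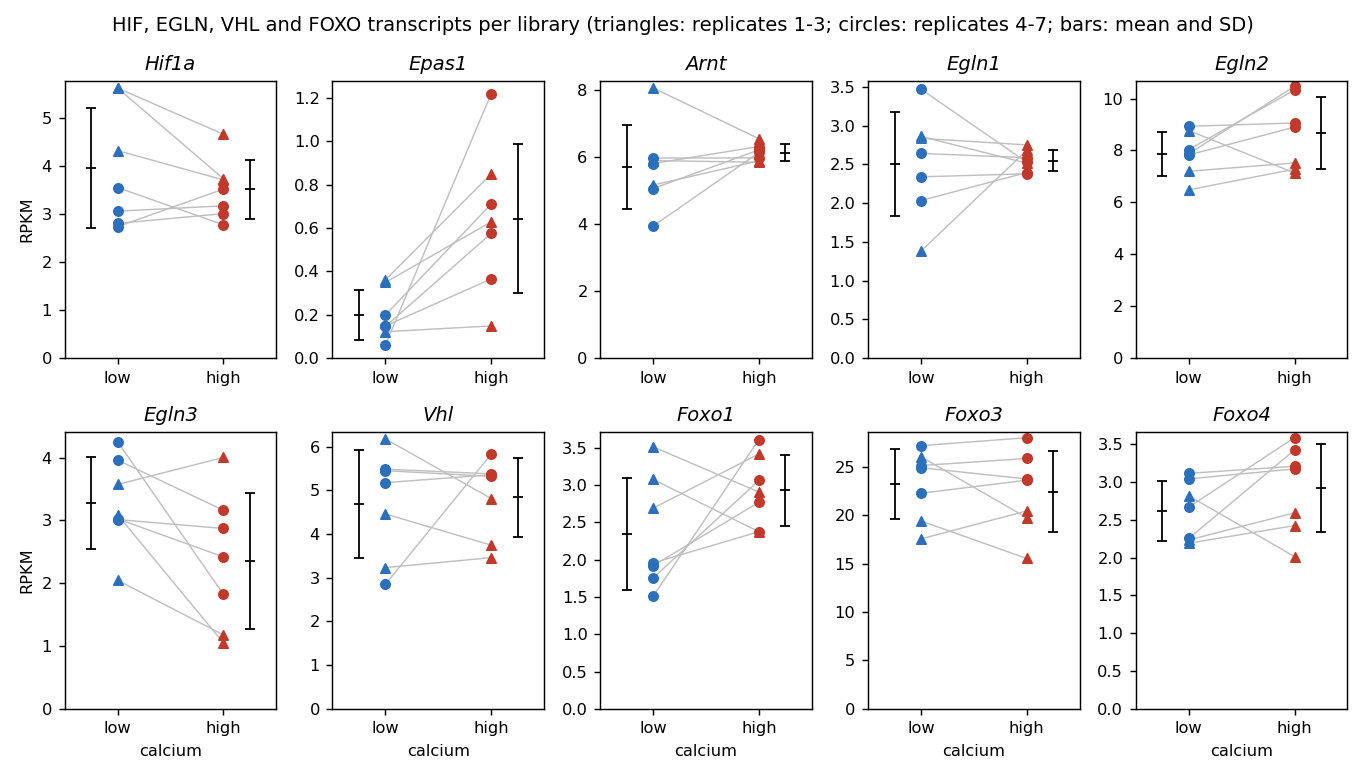
Level of each of the 10 transcripts (RPKM, linear axis from 0) in calcium-low (blue) and calcium-high (red) libraries, with lines joining libraries of the same number, triangles for replicates 1 to 3, circles for replicates 4 to 7, and bars for the mean and SD of 7 libraries. Epas1 was higher in the calcium-high library in 7 of 7 pairs, while the groups overlapped for all 10 transcripts.

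None of the 9 tested genes passed the test between calcium-high and calcium-low HSCs, with or without the replicate block. This was limma on log2(RPKM + 1) with Benjamini-Hochberg adjustment over 9921 genes at an adjusted p under 0.05. Over all genes the same fit called 0 genes (0%), with 669 at an unadjusted p under 0.05, and the fit with the block called 91 (0.917%, with 0.433% lower). The 0 calls among 9 genes are therefore close to the background. Differences below are calcium-high minus calcium-low on the log2(RPKM + 1) scale, which understates the change of low transcripts. RNA came from sorted pools, so fewer cells with a transcript and less RNA per cell cannot be told apart.

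Of the HIF alpha subunits, the abundant Hif1a showed no called difference, and the scarce Epas1 had the higher level in the calcium-high library of every pair, without passing in the limma fits over all 14 libraries with or without the block. Epas1, which encodes HIF-2 alpha, had a lowest, median and highest level of 0.149, 0.628 and 1.22 RPKM in calcium-high and of 0.0604, 0.149 and 0.361 RPKM in calcium-low libraries. The calcium-high library was the higher in all 7 pairs, and 6 of 7 calcium-high libraries lay above every calcium-low library, the exception being replicate 3. Of 18207 labels above 0 in any library, 2.35% were higher in all 7 pairs. This base includes labels at 0 in some libraries, while Epas1 had reads in every library. The means were 0.642 ± 0.343 and 0.198 ± 0.115 RPKM (SD, n = 7), a 3.24-fold difference resting on 19 to 230 reads per calcium-high and 12 to 36 reads per calcium-low library.

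Epas1 entered a test only when the filter on low values was dropped. There its difference was 0.43 (SE 0.12, 95% interval 0.18 to 0.69), with a limma adjusted p of 0.277, and of 0.165 with the replicate block, so it did not pass (0.00549% and 0% of all genes did). Leaving out calcium-high replicate 3 gave 0.51 and an adjusted p of 0.0280 (1.04% of genes called), and leaving out both libraries of replicate 3 gave 0.50 and 0.0491 (1.01% called). In both cases calcium-high replicate 3, the only library that made the groups overlap, was left out. Their ranges of 0.365 to 1.22 and 0.0604 to 0.361 RPKM therefore had to separate, so neither adjusted p is separate support for the difference. The nearest values, of calcium-high replicate 4 and calcium-low replicate 1, rest on 57 and 28 reads. Their 95% Poisson counting intervals were 0.276 to 0.473 and 0.240 to 0.521 RPKM. The share of all genes that separate in this way was not computed. Limma-voom on the recovered reads, run together with library quality weights, gave 2.06 on the log2 scale of library-scaled reads, with an adjusted p of 0.0170 (2.5% of genes called), and 1.74 and 0.0316 with the block (2.89% called). The call for Epas1 thus depended on the fit and on replicate 3, and the shares of limma-voom and of the weights in it were not separated.

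The mean of Epas1 was the higher in calcium-high in both library sets. In replicates 4 to 7 the groups did not overlap, at 0.365 to 1.22 against 0.0604 to 0.199 RPKM, a 5.18-fold difference of means with an adjusted p of 0.0577 (4.03% of genes called there). In replicates 1 to 3 the difference of means was 1.96-fold, the groups overlapped, and the adjusted p was 0.669. Endothelial cells are known for high Epas1, and the summed level of 7 endothelial markers was 0.848 to 3.24 RPKM in calcium-high and 0.386 to 1.07 RPKM in calcium-low libraries. Calcium-high replicate 3 had the lowest sum of its group, as it did for Epas1, and without replicate 3 the sums did not overlap, at 1.37 to 3.24 against 0.386 to 1.07 RPKM. Of these 7, Kdr, Stab2 and Sox18 had the higher mean in calcium-high, Kdr at 0.672 ± 0.258 against 0.240 ± 0.173 RPKM. The other 4 did not, and the highest level in any library was 0.0430 RPKM for Cdh5, 0.0242 for Sox17, 0.145 for Flt1 and 0.316 for Plvap. The part of these transcripts in the Epas1 difference was not tested.

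Hif1a had a lowest, median and highest level of 2.78, 3.52 and 4.66 RPKM in calcium-high and of 2.74, 3.55 and 5.63 RPKM in calcium-low libraries. The ranges overlapped, with 2 calcium-low libraries, replicates 1 and 3, above every calcium-high library. The calcium-high library was the higher in 3 of 7 pairs, and the lower in each pair of replicates 1 to 3. The difference was -0.11 (SE 0.15, 95% interval -0.42 to 0.20), with a limma adjusted p of 0.992. The highest values came from replicates 1 to 3, with means of 4.04 ± 0.543 RPKM in calcium-high and of 5.19 ± 0.751 RPKM in calcium-low libraries (n = 3), against 3.12 ± 0.312 and 3.04 ± 0.369 RPKM in replicates 4 to 7 (n = 4). As a share of the summed RPKM of Hif1a and Epas1, Epas1 made up 15.7 ± 8.38% in calcium-high and 4.78 ± 2.14% in calcium-low libraries (SD, n = 7), and the share was higher in calcium-high in 7 of 7 pairs. These shares restate the levels above and carry no test.

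Arnt, the shared partner of both alpha subunits, had a mean of 6.14 ± 0.252 RPKM in calcium-high and of 5.70 ± 1.26 RPKM in calcium-low libraries. Its calcium-high values kept to 5.85 to 6.55 RPKM, while calcium-low values ran from 3.94 to 8.07 RPKM on both sides of them. The difference was 0.11 (SE 0.11, 95% interval -0.13 to 0.35), with a limma adjusted p of 0.991.

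**Figure D2:**
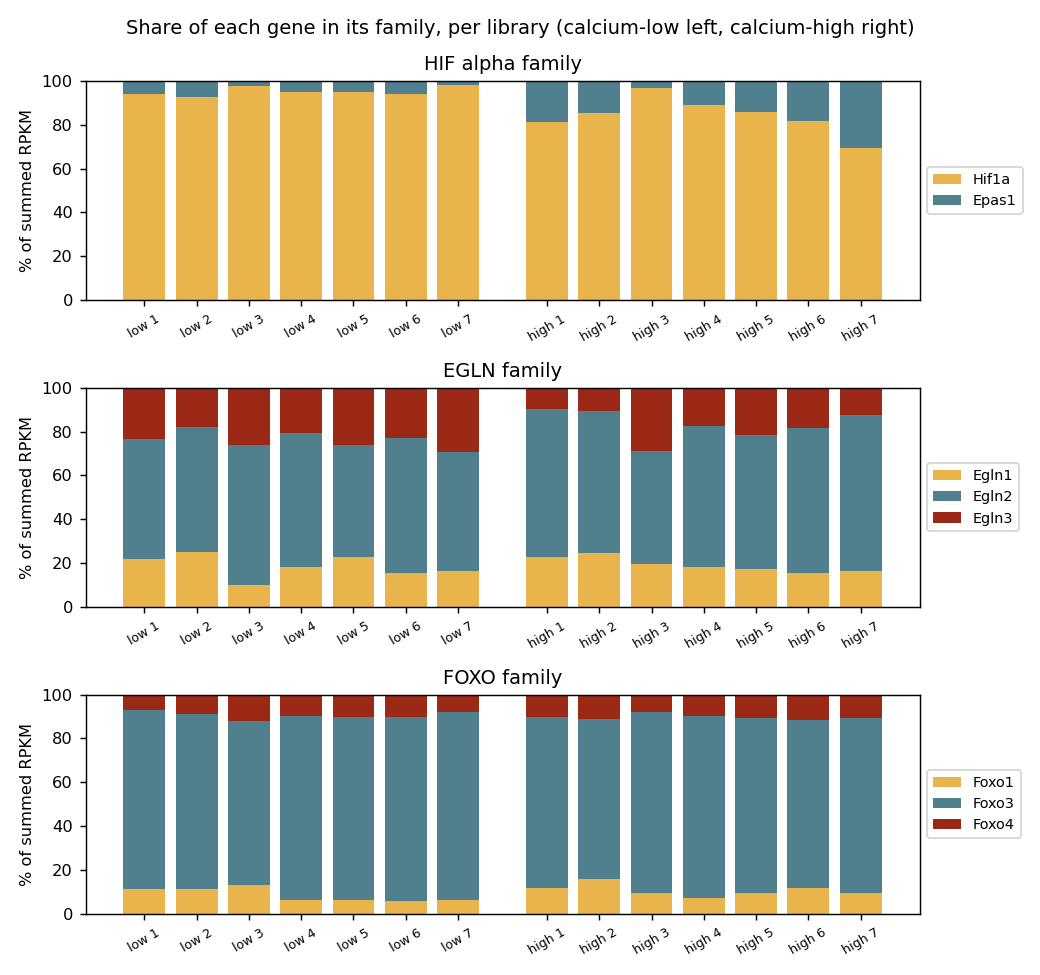
Share of each gene in the summed RPKM of its family (percent, 0 to 100) in each of the 14 libraries, for Hif1a and Epas1, for the 3 EGLN genes and for the 3 FOXO genes. The Epas1 share was 3.09% to 30.5% in calcium-high and 1.67% to 7.47% in calcium-low libraries.

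Among the oxygen-sensing hydroxylases, Egln3 was the lower transcript in most calcium-high libraries, without passing the test, and Egln1 and Egln2 differed by less than their spread. Egln3, whose product PHD3 is itself a HIF target in many cell types, had a lowest, median and highest level of 1.05, 2.42 and 4.004 RPKM in calcium-high and of 2.05, 3.09 and 4.25 RPKM in calcium-low libraries. The calcium-high library was the lower in 6 of 7 pairs, the exception again being replicate 3, and the groups overlapped. Of all tested genes, 12.4% were lower in at least 6 of 7 pairs. The means were 2.36 ± 1.08 and 3.28 ± 0.730 RPKM (SD, n = 7), 1.39-fold lower in calcium-high.

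The Egln3 difference was -0.40 (SE 0.19, 95% interval -0.80 to -0.0012), with a limma adjusted p of 0.737, and of 0.200 with the block. It was negative in replicates 1 to 3 (-0.45) and in replicates 4 to 7 (-0.36), and in all 60 fits that gave it a value. No fit called it, the lowest adjusted p being 0.0521.

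Egln2, which encodes PHD1, had a mean of 8.67 ± 1.40 RPKM in calcium-high and of 7.87 ± 0.850 RPKM in calcium-low libraries. It was higher in calcium-high in 6 of 7 pairs, with a difference of 0.12 (SE 0.11, 95% interval -0.12 to 0.35) and a limma adjusted p of 0.979. The share of all genes higher in at least 6 of 7 pairs was not computed. Egln1, which encodes PHD2, the main HIF hydroxylase in most tissues, was at 2.55 ± 0.138 and 2.51 ± 0.671 RPKM. Its difference was 0.040 (SE 0.12, 95% interval -0.21 to 0.29), with a limma adjusted p of 0.998. Of the summed RPKM of the 3 genes, Egln3 made up 17.0 ± 6.92% in calcium-high and 23.8 ± 3.76% in calcium-low libraries, and Egln2 made up 63.9 ± 6.29% and 57.7 ± 4.57%.

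Vhl, the substrate-binding subunit of the ligase that removes hydroxylated alpha subunits, was at 4.84 ± 0.901 RPKM in calcium-high and at 4.69 ± 1.24 RPKM in calcium-low libraries. It was higher in calcium-high in 3 of 7 pairs, with a difference of 0.055 (SE 0.15, 95% interval -0.26 to 0.37) and a limma adjusted p of 0.998.

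Foxo3 was the leading FOXO transcript in every library and had no called difference. It had a lowest, median and highest level of 15.5, 23.6 and 28.0 RPKM in calcium-high and of 17.6, 24.9 and 27.2 RPKM in calcium-low libraries, resting on 1516 to 6384 reads per library. The ranges overlapped and the means were 22.4 ± 4.18 and 23.2 ± 3.60 RPKM. The difference was -0.054 (SE 0.14, 95% interval -0.35 to 0.24), with a limma adjusted p of 0.998. Foxo3 made up 79.0 ± 3.62% of the summed FOXO RPKM in calcium-high and 82.1 ± 3.77% in calcium-low libraries.

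Foxo1, a FOXO factor also known for its part in lymphoid development, had a lowest, median and highest level of 2.37, 2.91 and 3.61 RPKM in calcium-high and of 1.51, 1.96 and 3.51 RPKM in calcium-low libraries. The calcium-high library was the higher in 5 of 7 pairs, and the groups overlapped through replicates 1 to 3. The means were 2.93 ± 0.477 and 2.35 ± 0.752 RPKM, and the difference of 0.25 (SE 0.14, 95% interval -0.033 to 0.54) had a limma adjusted p of 0.809.

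The library sets gave different values for Foxo1. In replicates 4 to 7 the calcium-high libraries were at 2.38 to 3.61 and the calcium-low libraries at 1.51 to 1.96 RPKM, a 1.65-fold difference of means with no overlap. The limma fit on these 8 libraries gave 0.50 and an adjusted p of 0.0188, in a set where 8.52% of genes were called, 651 higher and 180 lower (248 higher and 406 lower under median-of-ratios scaling). In replicates 1 to 3 the difference was -0.074, with an adjusted p of 0.827, and 0% of genes were called. The difference between the sets was 0.57 (SE 0.18), with a limma adjusted p of 0.112, so it did not pass (0% of genes did), and it was 0.28 with an adjusted p of 0.741 under median-of-ratios scaling.

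Foxo1 also passed over all 14 libraries in the fits that weight libraries by quality with the filter kept and no block. It was at 0.45 in limma (adjusted p 0.00763, 8.47% of genes called) and at 0.61 in limma-voom (adjusted p 0.00807, 7.11% called). With no filter, limma-voom with these weights gave 0.56 and an adjusted p of 0.0482 (2.5% called). Adding the block to that fit gave 0.44 and 0.0888, so Foxo1 did not pass (2.89% called). Replicates 1 to 3 had weights of 0.175 to 0.634 in the limma fit, and replicates 4 to 7 of 1.001 to 3.42.

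Part of each set's value is common to all genes: the median difference over all tested genes was -0.20 in replicates 1 to 3 and 0.11 in replicates 4 to 7, against -0.029 over all 14 libraries. Under median-of-ratios scaling Foxo1 was at 0.39 in replicates 4 to 7, with an adjusted p of 0.0434 (6.71% of genes called). With the filter also dropped, that fit called 0 members (3.25% of genes called). Without scaling, Epas1, Arnt, Foxo1 and Foxo4 had no overlap between the groups in replicates 4 to 7, all 4 higher in calcium-high. Among tested genes, which leave out Epas1, 13.8% were higher and 3.1% lower without overlap. The nearest values were 5.978 against 5.974 RPKM for Arnt and 3.17 against 3.11 RPKM for Foxo4. Overlap under median-of-ratios scaling was not tested.

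Foxo4, the X-linked FOXO factor, was at 2.92 ± 0.580 RPKM in calcium-high and at 2.62 ± 0.394 RPKM in calcium-low libraries. It was higher in calcium-high in 6 of 7 pairs, a count for which the share of all genes was not computed. The difference was 0.11 (SE 0.11, 95% interval -0.13 to 0.35), with a limma adjusted p of 0.991.

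**Figure D3:**
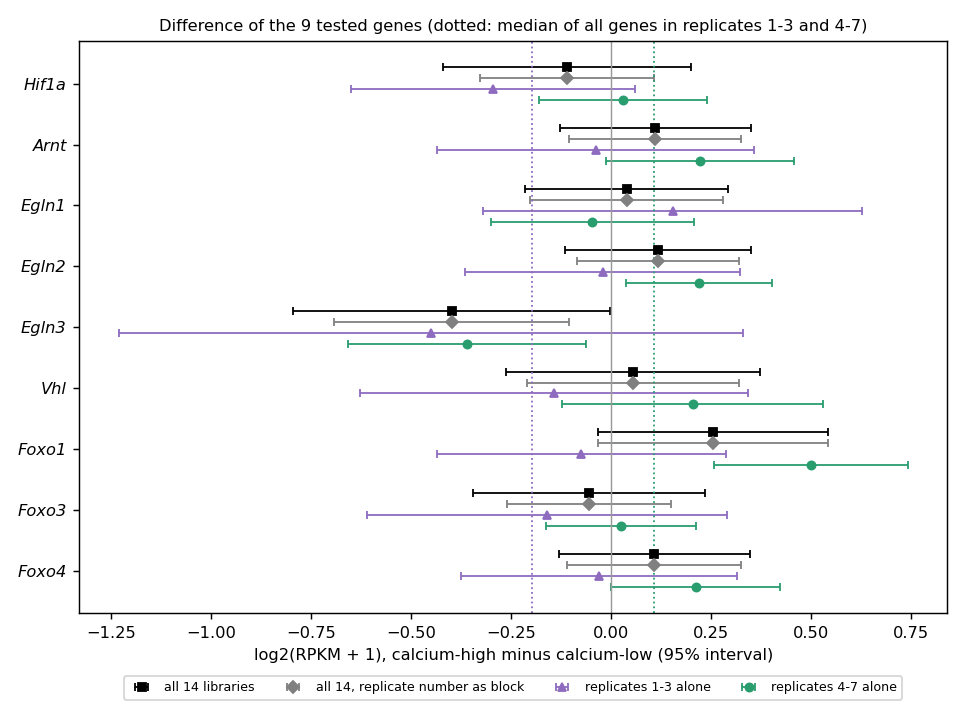
Difference of the 9 tested genes, calcium-high minus calcium-low on the log2(RPKM + 1) scale, with 95% intervals, from all 14 libraries without (black) and with (grey) the replicate block, from replicates 1 to 3 (purple) and from replicates 4 to 7 (green), with dotted lines for the median of all genes in each set. The intervals over all 14 libraries hold 0 for 8 of the 9 genes, with and without the block. The interval of Egln3 is -0.80 to -0.0012 without the block and -0.69 to -0.10 with it.

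Genes around the HIF factors were described from 2 lists. Of 16 HIF cofactors and regulators 15 were tested, 0 passed with or without the block, and 5 of 15 were positive, with a median difference of -0.051 beside -0.029 for all genes. Hif3a, an alpha subunit that can restrain the others, was at 2.22 ± 0.697 RPKM in calcium-high and at 1.58 ± 0.595 RPKM in calcium-low libraries (limma adjusted p 0.809, and 0.259 with the block). Siah2, a ligase for the EGLN enzymes, was at 3.16 ± 0.654 and 3.80 ± 0.632 RPKM (adjusted p 0.819 and 0.415). Hif1an, the asparaginyl hydroxylase of HIF alpha, was at 4.84 ± 0.585 and 4.30 ± 0.760 RPKM, and Hsp90aa1, a chaperone, at 70.1 ± 14.1 and 85.3 ± 38.5 RPKM.

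Of 34 HIF target genes 26 were tested, and 0 passed without the block and 1 with it, which was lower. In all, 13 of 26 were positive, with a median of -0.012. Ndrg1, a stress-responsive gene induced by hypoxia, fell in calcium-high libraries in the fit with the block, by 0.63 on the log2 scale (limma adjusted p 0.0337, and 0.0990 without the block). The call was lost in 6 of the 7 fits with the block that left out 1 pair, all but that without replicate 3, and with the block and no filter on low values. Its levels were 10.2, 10.6 and 12.4 RPKM (lowest, median, highest) in calcium-high and 13.5, 16.2 and 23.7 RPKM in calcium-low libraries. The groups did not overlap, which held for 0.141% of tested genes. Of the other targets named, Ldha, lactate dehydrogenase A, was at 98.0 ± 13.7 and 88.9 ± 18.6 RPKM, and Slc2a3, a glucose transporter, at 11.0 ± 1.79 and 9.71 ± 1.37 RPKM. Higd1a, a mitochondrial protein induced by hypoxia, was at 1.68 ± 0.593 and 2.10 ± 0.712 RPKM, and none of these 3 passed with or without the block.

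Genes that act on FOXO factors or lie downstream of them were described in the same way. All 28 PI3K-AKT regulators were tested, 0 passed with or without the block, and 8 of 28 were positive, with a median of -0.047. Pik3cg, a catalytic PI3K subunit of blood cells, was at 9.82 to 11.4 RPKM in calcium-high and at 12.3 to 14.2 RPKM in calcium-low libraries. The groups did not overlap, and the difference of -0.24 had a limma adjusted p of 0.527, and of 0.193 with the block. Pik3r1, the regulatory PI3K subunit, was at 11.3 ± 1.45 and 8.93 ± 1.33 RPKM (adjusted p 0.542 and 0.190). Sgk1, an AKT-related kinase that also phosphorylates FOXO, was at 0.983 ± 0.623 and 1.66 ± 0.664 RPKM, and Xpo1, a nuclear export receptor, at 5.86 ± 0.856 and 8.82 ± 4.64 RPKM, neither of which passed.

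Of 28 FOXO target genes 23 were tested, 0 passed without the block and 1 with it, which was lower, and 10 of 23 were positive, with a median of -0.043. Other fits gave more calls. The list was chosen with earlier results of these data known, so counts above the share of all genes are a description and no support. Library quality weights called 10 of 23 (8.47% of all genes), 5 higher and 5 lower. Limma-voom with these weights called 8 of 23 (7.11%), 3 higher and 5 lower. Replicates 4 to 7 alone called 7 of 24 (8.52%), 4 higher and 3 lower. The direction there depended on scaling, with 0 higher and 8 lower under median-of-ratios scaling (6.71% of all genes called). Bcl2l11, which encodes the death protein BIM, fell in the fit with the block by 0.99 on the log2 scale (limma adjusted p 0.0476, and 0.239 without the block). This call too was lost in 6 of the 7 fits with the block that left out 1 pair, where 0 FOXO targets passed, and with the block and no filter. Its levels were 0.756, 1.46 and 5.20 RPKM (lowest, median, highest) in calcium-high and 2.19, 4.90 and 6.99 RPKM in calcium-low libraries. The highest calcium-high value was that of replicate 3, and the calcium-high library was the lower in 6 of 7 pairs.

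Gadd45a, a growth arrest and DNA damage gene, was at 1.83 ± 0.755 RPKM in calcium-high and at 2.95 ± 0.546 RPKM in calcium-low libraries, and lower in 7 of 7 pairs, as were 3.02% of tested genes (adjusted p 0.368, and 0.0830 with the block). Klf2, a quiescence factor of lymphocytes, was at 6.50 ± 2.14 and 3.71 ± 1.46 RPKM (adjusted p 0.390 and 0.121).

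**Figure D4:**
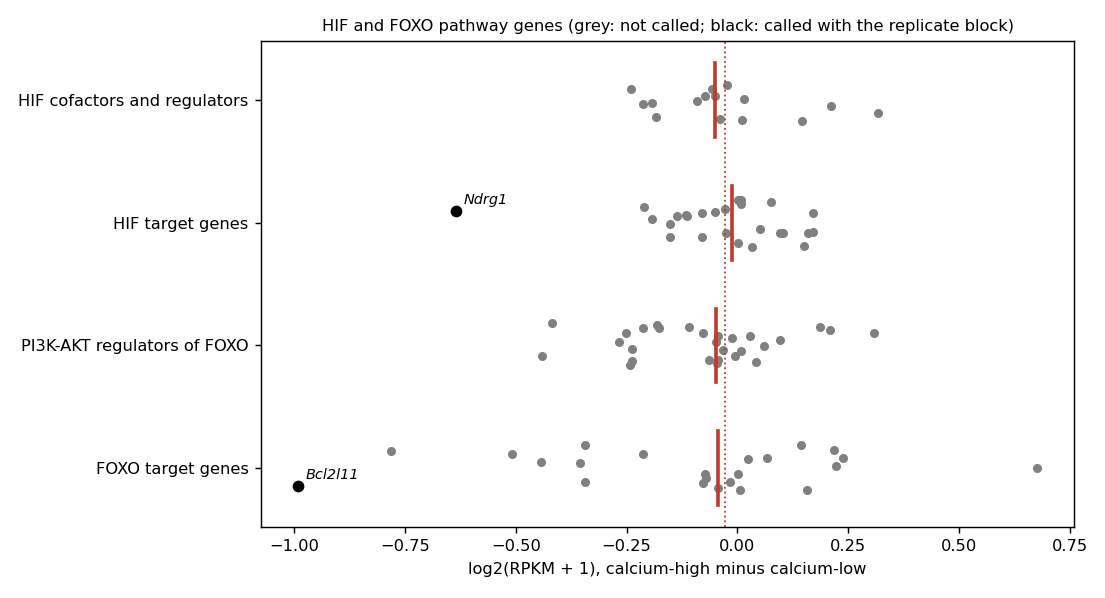
Difference of each tested gene of the 4 pathway lists, calcium-high minus calcium-low on the log2(RPKM + 1) scale, with the list median as a red bar and the median of all genes as a dotted line. Of these 2 fits, grey genes passed in neither, and Ndrg1 and Bcl2l11 (black) passed in the fit with the replicate block and not in the fit without it.

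The transcripts most like 3 of the factors were found over the 14 libraries by Pearson r of log2(RPKM + 1), after the mean of each library set was subtracted, among genes with a mean of at least 5 RPKM. For Epas1 these were Phactr2 (r = 0.931), Soga1 (0.924) and Itsn1 (0.915). For Hif1a they were 2700060E02Rik (0.928), Dut (0.927) and Idh3a (0.923). For Foxo3 they were Arid1b (0.883), Safb2 (0.879) and the label Nfya_1 (0.851). Depth and marker levels differ between the libraries, and these values describe likeness across libraries only.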

How the data were processed

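The authors deposited 1 file of RPKM values per library, a unit read here from the values. The submitters' processing notes name GRCm38, mm10 and edgeR with no role, and the annotation, aligner and counter are not given in the sources used here. Per the labels, first strands were made with not-so-random primers, followed by Nextera XT libraries and NextSeq sequencing. The 14 files list 48737 labels each, 23 of which appear as serial numbers in some files, so 48714 were joined. Of these, 18207 were above 0 in any library.

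The members and gene lists were chosen with earlier results of these data known. The text names all 10 members and, of each list, the 3 tested genes with the smallest p without and with the replicate block. One gene that this rule names is not reported here. Genes with a mean of at least 1 RPKM were tested with limma 3.58.1 (R 4.3.3) on log2(RPKM + 1), letting the variance follow the mean level, at a Benjamini-Hochberg adjusted p under 0.05, and the code was tested on simulated data. Whole reads were recovered as multiples of a step common to each gene, within 0.02 reads for all 9921 tested genes, up to a common factor. They gave the depth and the alternative of limma-voom with library quality weights, and read counts cover counting error only. Same-numbered libraries deviated together from their group means at r = 0.384 to 0.715 in all 7 pairs, over the 0.1 required, and at -0.0647 to 0.552 within library sets. The former r also holds what libraries of the same set share. By it, 5 of the 14 libraries were most like the library of the same number in the other group. Alternatives were the replicate block, other pseudocounts, filters and scalings, library quality weights alone and with limma-voom, each library set, and leaving out libraries. Python 3.11.15, numpy 2.4.6, pandas 2.3.3, scipy 1.17.1 and matplotlib 3.10.9 were used.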

Additional observations from a re-analysis of the deposited data

Results flagged for a closer look

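Of 26 genes checked in each group of 7 libraries, 4 had 1 library whose gap to the nearest other exceeded Dixon's 95% critical value, and chance flags about 1 in 20 groups. None of the 10 members was among them, and all 4 libraries were those of replicate 3. In calcium-high replicate 3, Higd1a was at 2.87 RPKM against 0.983 to 1.78 in the others, Xpo1 at 7.59 against 4.97 to 6.00, and Bcl2l11 at 5.20 against 0.756 to 1.85. In calcium-low replicate 3, Ldha was at 129 RPKM against 73.3 to 91.8 in the others.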

How the results depend on the processing

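Egln3 stayed negative and Epas1 positive in every fit that gave them a value, from -0.61 to -0.18 over 60 fits for Egln3 and from 0.25 to 2.06 over 24 for Epas1. With the replicate number as a block, the count of genes called rose from 0 to 91, HIF targets called from 0 to 1 (Ndrg1) and FOXO targets called from 0 to 1 (Bcl2l11), and no member was called. The cause of the changes below was not tested.

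Genes called were 1 with no filter, 1 with a filter of 5 RPKM, 4 with median-of-ratios and 3 with upper-quartile scaling, 840 with library quality weights, 705 with limma-voom and these weights together, 51 with the library set as a term, 831 in replicates 4 to 7 alone, 122 without both libraries of replicate 3 and 326 with median-of-ratios scaling beside the block. Below, limma-voom always includes the quality weights. Members called were 1 (Foxo1) with quality weights (0.45), limma-voom (0.61), replicates 4 to 7 alone (0.50) and these with median-of-ratios scaling (0.39). In fits with no filter chosen after the data were seen, members called were 2 with limma-voom (Epas1 at 2.06, Foxo1 at 0.56), 1 with limma-voom and the block (Epas1 at 1.74), 1 without replicate 3 (Epas1 at 0.50) and 1 in replicates 4 to 7 alone (Foxo1). The fit with no filter on replicates 4 to 7 with median-of-ratios scaling called 0 members. HIF cofactors called were 2 with quality weights, limma-voom and replicates 4 to 7 alone. HIF targets called were 1 with each of these, the library set as a term, replicate 3 left out, and the block with median-of-ratios scaling. PI3K-AKT regulators called were 3 with weights, 3 with limma-voom, 1 in replicates 4 to 7 alone and 1 with median-of-ratios scaling beside the block. FOXO targets called were 10, 8, 7 and 2 in the same order, and 3 without replicate 3. In replicates 4 to 7, PI3K-AKT regulators called were 1 higher and 0 lower unscaled, and 0 higher and 4 lower with median-of-ratios scaling. FOXO targets called there were 4 higher and 3 lower unscaled, and 0 higher and 8 lower with that scaling.

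The sign turned for several members near 0. In replicates 1 to 3 alone Arnt was at -0.038, Egln2 at -0.021, Vhl at -0.14, Foxo1 at -0.074 and Foxo4 at -0.029, and with median-of-ratios scaling there Foxo3 was at 0.060. In replicates 4 to 7 alone Hif1a was at 0.030, Egln1 at -0.046 and Foxo3 at 0.024, and with median-of-ratios scaling there Egln1 was at -0.15. Egln1 was at -0.067 with quality weights, -0.11 with limma-voom, -0.052 with limma-voom and no filter, and -0.059 without replicate 3, and Hif1a was at 0.0057 with quality weights. The difference between the library sets turned under median-of-ratios and upper-quartile scaling to -0.081 and -0.094 for Arnt, -0.11 and -0.13 for Egln2, -0.20 and -0.21 for Egln3, -0.20 and -0.21 for Foxo3, and -0.046 and -0.056 for Foxo4, and under upper-quartile scaling to -0.0084 for Hif1a.

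Leaving out 1 library or 1 pair at a time gave 0 to 313 genes called, 313 with the block and without the pair of replicate 3, 101 without calcium-high replicate 3 and 21 without calcium-low replicate 3. Members called were 0 to 1, HIF cofactors 0 to 0, HIF targets 0 to 1, PI3K-AKT regulators 0 to 1 and FOXO targets 0 to 6. Differences ran from 0.36 to 0.51 for Epas1, -0.17 to -0.034 for Hif1a, 0.040 to 0.19 for Arnt, -0.059 to 0.10 for Egln1, 0.074 to 0.18 for Egln2, -0.51 to -0.29 for Egln3, -0.074 to 0.12 for Vhl, 0.15 to 0.34 for Foxo1, -0.12 to 0.026 for Foxo3 and 0.052 to 0.18 for Foxo4. The sign turned for Egln1 without calcium-low replicate 3 (-0.050), for Vhl without calcium-low replicate 1 (-0.011) or 6 (-0.034) and with the block without replicate 6 (-0.074), and for Foxo3 without calcium-high replicate 2 (0.026) and with the block without replicate 1 (0.00029). At 12 to 36 reads per calcium-low library, counting error limits Epas1.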
